A study of Mus musculus domesticus and Mus musculus domesticus x Mus musculus castaneus and Mus musculus castaneus with 10 samples.

Results

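The Hox cluster genes of the mouse were examined in CAST homozygous stem cells. Members were the protein-coding genes whose GRCm38 symbol is Hoxa, Hoxb, Hoxc or Hoxd followed by a number from 1 to 13 and nothing else, a rule that uses no measured value. There were 39 such genes among the 26808 genes of the deposited count table, and the annotation holds no further ones. RNA was sequenced from undifferentiated pluripotent stem cells of the CAST/EiJ strain of M. m. castaneus, in 2 libraries called replicate 1 and replicate 2. These are induced pluripotent stem cells, derived from embryonic fibroblasts by retroviral delivery of Oct4, Sox2 and Klf4, grown on irradiated fibroblast feeder cells with LIF and depleted of feeders before extraction. Each library has its own batch entry, so batch and replicate cannot be told apart, and the sources used here do not say whether the libraries came from separate lines or cultures. Libraries labelled 129_PSC (4) and 129CAS_PSC (4) were not analysed here, nor were 7 further columns of the table, named for C57BL6 stem cells and for neurons, which match none of the samples listed. Levels are therefore described in 1 strain and 1 cell type, and no test between strains or cell types was run.

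Hox genes encode homeodomain transcription factors that give cells their position along the head-to-tail axis of the embryo. They lie in 4 clusters, and genes with the same number in different clusters are paralogs that descend from the same ancestral gene. Low numbers sit at the 3' end of a cluster and act in anterior tissue, whereas high numbers sit at the 5' end and act in the tail, the limb ends and the urogenital tract. In pluripotent stem cells the clusters are classically held silent by Polycomb proteins, while fibroblasts and other somatic cells keep Hox expression that reflects where in the body they came from.

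The 3 members with the most counts were Hoxc13 (a regulator of hair and nail formation), Hoxd13 (needed for the digits and the genital tract) and Hoxb9 (a posterior patterning gene with a role in the rib cage). Their homeoboxes, the part of the coding sequence that all members share and where reads could most easily be confused, are shown from the GENCODE transcripts of GRCm38. Each is 180 bases long and lies in the last exon of its gene. The Hoxc13 homeobox is at chr15:102927210-102927389, that of Hoxd13 at chr2:74669930-74670109 and that of Hoxb9 at chr11:96274659-96274838, all on the plus strand. In the Hoxc13 line, capitals mark the codons of the amino acids WFQNRR in the DNA recognition helix. In the Hoxd13 and Hoxb9 lines, capitals mark the bases that differ from Hoxc13.
Hoxc13: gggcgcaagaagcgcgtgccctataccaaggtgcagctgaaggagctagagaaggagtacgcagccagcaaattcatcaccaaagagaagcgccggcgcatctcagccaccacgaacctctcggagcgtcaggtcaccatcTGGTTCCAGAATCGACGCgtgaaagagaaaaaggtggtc
Hoxd13: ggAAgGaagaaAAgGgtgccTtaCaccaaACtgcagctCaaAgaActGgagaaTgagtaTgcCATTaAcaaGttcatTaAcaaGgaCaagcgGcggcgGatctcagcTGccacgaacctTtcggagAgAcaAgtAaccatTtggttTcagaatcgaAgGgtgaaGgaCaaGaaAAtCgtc
Hoxb9: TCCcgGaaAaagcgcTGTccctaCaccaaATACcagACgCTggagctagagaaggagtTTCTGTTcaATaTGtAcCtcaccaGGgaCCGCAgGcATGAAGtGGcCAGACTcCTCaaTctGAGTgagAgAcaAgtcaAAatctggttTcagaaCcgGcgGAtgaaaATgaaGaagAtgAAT
Hoxd13 differed from Hoxc13 at 45 bases, an identity of 75.0%, and the longest run without a difference was 10 bases. Hoxb9 differed at 77 bases, an identity of 57.2%, with a longest run of 17 bases. The other paralogs of group 13 were about as close to Hoxc13 as Hoxd13 was, at 77.2% for Hoxa13 and 73.9% for Hoxb13. Outside the stretches where annotated genes overlap, 31 of the 39 members shared no run of 50 bases with a transcript of any other gene, and in the remaining 8 such runs made up at most 1.44% of the member's runs of that length (Hoxc9). Hoxc13 and Hoxd13 shared none, and in Hoxb9 such runs made up 0.233%. These are GRCm38 sequences, and differences of the CAST strain from them were not examined.

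Counts over all genes summed to 14460393 for replicate 1 and 13728098 for replicate 2. A gene at 3 or fewer counts was treated as not detectable, a floor of 0.207 counts per 1000000 counts of the library (CPM) in replicate 1 and 0.219 CPM in replicate 2. Intervals below are 95% exact intervals of the counts and, like this floor, they cover counting error only. The cells carried stem cell markers, with Pou5f1 (Oct4) at 547 and 731 CPM and Esrrb at 903 and 556 CPM. Of 12 pluripotency markers listed, 10 were in the table, and all 10 were detectable in both libraries. They include the delivered factors Oct4, Sox2 and Klf4, and reads from the delivered copies were not told apart. Fibroblast transcripts were also present. Of 13 fibroblast markers, 12 were above 3 counts in both libraries, with a summed level of 3305 CPM in replicate 1 and 1330 CPM in replicate 2, and none was at 0. Most of this sum came from collagens, with Col1a1 at 1726 and 777 CPM and Col1a2 at 825 and 273 CPM, whereas Dcn had 3.25 and 3.21 CPM, Lum 2.07 and 1.31 CPM and Twist2 3 and 2 counts. Of 10 motor neuron markers, 6 were above 3 counts in both libraries, summing to 96.9 and 52.9 CPM, of which the general neuronal tubulin Tubb3 gave 81.2 and 44.2 CPM. Mnx1, Isl1, Isl2, Lhx3, Slc18a3 and Slc5a7 were each at 1.11 CPM or less, and Chat, the enzyme that makes acetylcholine, had no count. Stem cells with a trace of Hox RNA and a few other cells with much of it cannot be told apart in these bulk samples.

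Hox expression was low in CAST stem cells, and it was concentrated in a few members. The 39 members together had 802 counts in replicate 1 and 450 in replicate 2, or 55.5 and 32.8 CPM, a mean of 44.1 ± 16 CPM (SD, n = 2). By count, 19 members (48.7%) were above 3 counts in both libraries, 8 in 1 library and 12 in neither. Among all 18370 protein-coding genes of the table, 69.9% were above 3 counts in both libraries. At a stricter minimum of 10 counts in each library, 10 members (25.6%) remained, against 64.6% of protein-coding genes. The median level was 0.183 CPM per kilobase of exons over the members and 1.71 over protein-coding genes.

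**Figure D1:**
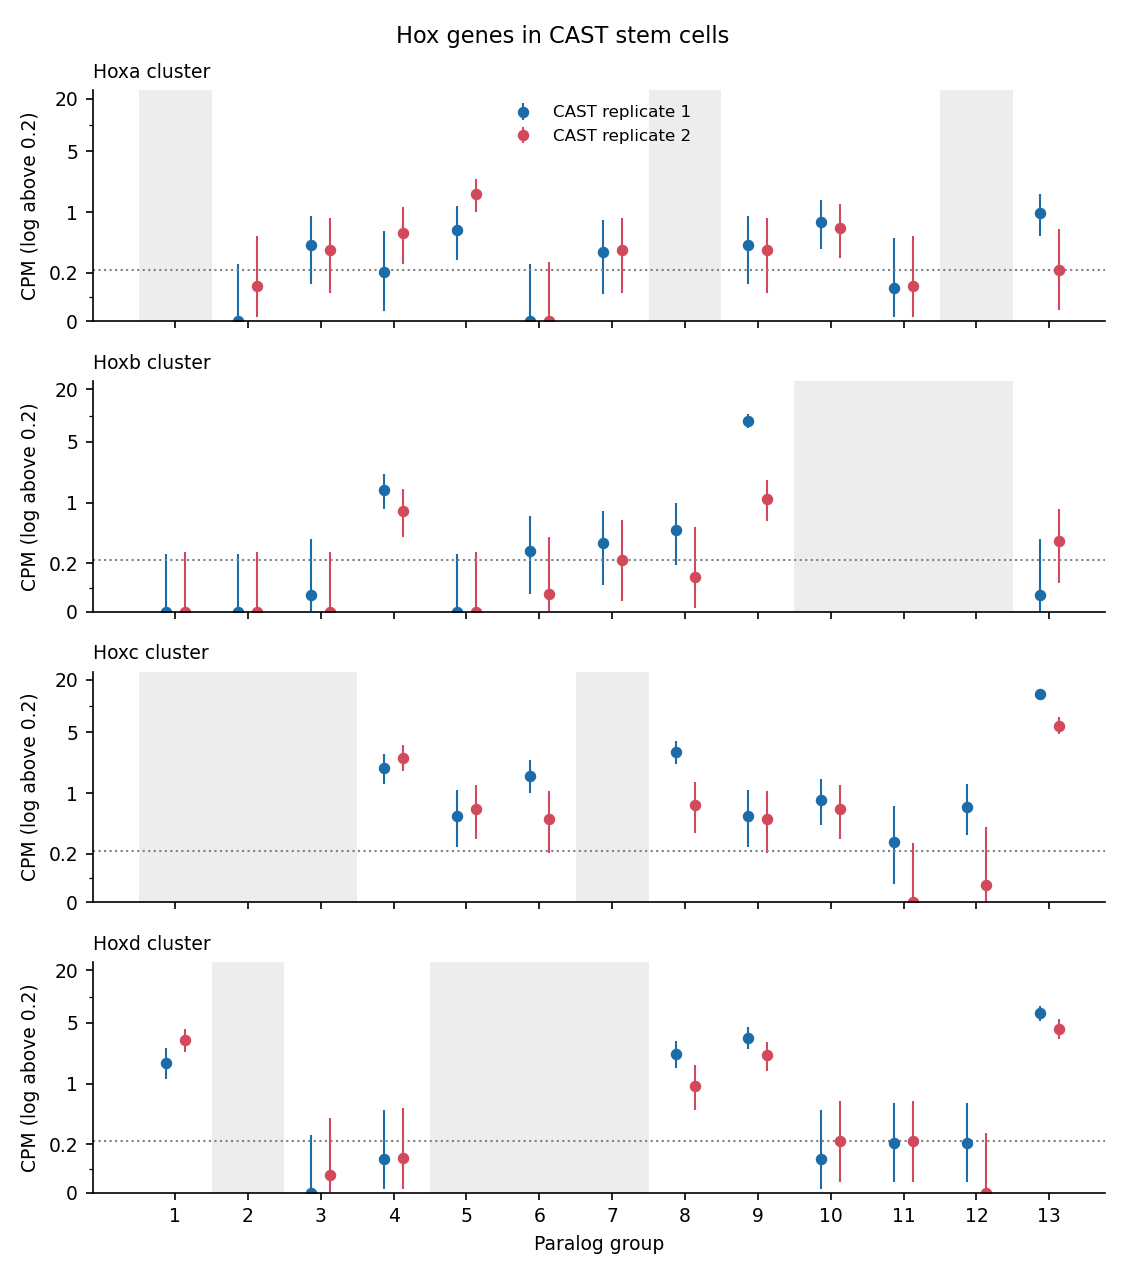
Levels of the Hox genes in CAST stem cells, by cluster (panels) and paralog group (x axis), in CPM on an axis that is logarithmic above 0.2. Points are the 2 libraries, bars are 95% exact Poisson intervals, the dotted line is the floor of 3 counts in replicate 2 (0.219 CPM), and grey bands mark groups with no gene shown in that cluster. Hoxc13 and Hoxd13 stand highest in replicate 2, with Hoxb9 beside them in replicate 1 alone, and 12 members lie at or under 3 counts in both libraries.

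Hoxc13 (ENSMUSG00000001655, chromosome 15, 102921103 to 102928814) was counted 199 times in replicate 1 and 82 times in replicate 2, or 13.8 and 5.97 CPM. Per length it was the highest member in both libraries, at 5.59 and 2.43 CPM per kilobase, and it held 22.4% of all Hox counts. Hoxd13 had 93 and 59 counts, or 6.43 and 4.30 CPM. Hoxb9 had 126 and 15 counts, or 8.71 and 1.09 CPM, which per length placed it above Hoxd13 in replicate 1 (3.39 against 2.59 CPM per kilobase) and below it in replicate 2 (0.424 against 1.73). Together these 3 genes held 52.1% of the Hox counts in replicate 1 and 34.7% in replicate 2.

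As means per length, the order began with Hoxc13 at 4.01 ± 2.24 CPM per kilobase (SD, n = 2), Hoxd13 at 2.16 ± 0.608, Hoxb9 at 1.90 ± 2.09, Hoxd1 at 1.32 ± 0.561, and Hoxd9 at 1.29 ± 0.422 CPM per kilobase. Neighbours in this order differed by less than the larger of their SDs. Hoxc4 was lower, at 0.873 ± 0.169 CPM per kilobase. On the same scale 59.8% of protein-coding genes were lower than Hoxc13, 52.5% lower than Hoxd13 and 51.1% lower than Hoxb9. The means of these 3 members exceeded the median of protein-coding genes, but that of Hoxb9 did so through replicate 1, since it was at 0.424 CPM per kilobase in replicate 2.

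In the Hoxa cluster (chromosome 6), 6 of 11 members were above 3 counts in both libraries. Hoxa5, a regulator of lung and neck development, had 9 and 22 counts, or 0.622 and 1.60 CPM. Hoxa10, a patterning gene of the uterus, had 11 and 9 counts. Hoxa3 had 6 and 5 counts, Hoxa7 had 5 and 5, and Hoxa9 had 6 and 5. Hoxa11 is among the factors whose binding sites the study examined. It had 2 counts in each library, under the floor, and 35.0% of its exon bases overlap Hoxa11os on the opposite strand, which had no count.

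In the Hoxb cluster (chromosome 11, 96194316 to 96368256), 2 of 10 members were above 3 counts in both libraries. Besides Hoxb9 the other was Hoxb4, a gene known for its role in blood stem cells, with 20 and 11 counts, or 1.38 and 0.801 CPM. Hoxb1, Hoxb2 and Hoxb5 had no count in either library, and Hoxb3 had 1 count in replicate 1 and none in replicate 2. The paralogs Hoxb1 and Hoxd1 therefore differed, since Hoxd1 was detectable in both libraries and Hoxb1 was not in either, with upper bounds of 0.255 and 0.269 CPM by the exact intervals of 0 counts.

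In the Hoxc cluster (chromosome 15, 102921103 to 103036852), 7 of 9 members were above 3 counts in both libraries, the highest number of the 4 clusters. Hoxc4, at the 3' end, had 28 and 35 counts, or 1.94 and 2.55 CPM. Hoxc8, a regulator of the thoracic and brachial region, had 43 and 10 counts, or 2.97 and 0.728 CPM. Hoxc6, a thoracic gene, had 23 and 7 counts. These 2 middle genes were higher in replicate 1 than in replicate 2, whereas Hoxc4 and the remaining middle gene of the cluster, Hoxc5, were not. Hoxc5 had 8 and 9 counts, Hoxc9 had 8 and 7, and Hoxc10 had 12 and 9. Hoxc5 and Hoxc10 share exon bases, 5.37% and 8.70% of their lengths.

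In the Hoxd cluster (chromosome 2, 74668310 to 74765142), 4 of 9 members were above 3 counts in both libraries and the other 5 in neither. Besides Hoxd13 these were Hoxd9, a limb and spinal patterning gene with 49 and 29 counts (3.39 and 2.11 CPM), Hoxd8 with 32 and 13 counts (2.21 and 0.947 CPM) and Hoxd1 with 25 and 44 counts (1.73 and 3.21 CPM). Hoxd1 is known for its role in pain-sensing neurons. Hoxd10, Hoxd11 and Hoxd12, which lie between Hoxd9 and Hoxd13 and act with Hoxd13 in the limb, had from 0 to 3 counts. Detectable and undetectable genes thus alternated along the cluster rather than forming 1 block, with both end genes above the floor. Hoxd3 and Hoxd4 had at most 2 counts, and 62.8% and 52.3% of their exon bases overlap other annotated genes. Reads in such overlaps may have been discarded or counted elsewhere, and this was not tested.

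The 8 members above 3 counts in 1 library were Hoxa4 with 3 and 8 counts, Hoxa13 with 14 and 3, Hoxb6 with 4 and 1, Hoxb7 with 5 and 3, Hoxb8 with 7 and 2, Hoxb13 with 1 and 5, Hoxc11 with 4 and 0, and Hoxc12 with 10 and 1. Of these, 6 were above the floor in replicate 1 and 2 in replicate 2. The 12 members in neither library were Hoxa2, Hoxa6, Hoxa11, Hoxb1, Hoxb2, Hoxb3, Hoxb5, Hoxd3, Hoxd4, Hoxd10, Hoxd11 and Hoxd12, of which Hoxa6, Hoxb1, Hoxb2 and Hoxb5 had no count in either. Exon overlap with another gene was present in 16 members, of which 6 were above 3 counts in both libraries, against 13 of the 23 members without overlap.

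Levels were summed by paralog group, and groups 2 to 13 are described. Group 13 had the highest sum in both libraries, at 21.2 and 10.9 CPM, a mean of 16 ± 7.34 CPM (SD, n = 2). Group 9 was at 13.1 and 4.08 CPM, of which Hoxb9 made up most in replicate 1 and Hoxd9 most in replicate 2. It was above group 4 in replicate 1 and had the same sum of 56 counts in replicate 2. These sums are not per length, but the means summed per kilobase kept the order of groups 13, 9 and 4. They were 6.51 ± 2.97 for group 13 and 3.48 ± 2.54 CPM per kilobase for group 9 (SD, n = 2). In replicate 2 alone, group 4 was slightly above group 9 per kilobase, at 1.72 against 1.69. Group 4 had 3.67 and 4.08 CPM and group 8 had 5.67 and 1.82 CPM. Group 2 had the lowest mean, with 0 and 2 counts over 2 members, and group 3 had 7 and 6 counts over 3 members. Groups 11 and 12, which lie between groups 9 and 13, were also low, with 9 and 5 counts for group 11 and 13 and 1 counts for group 12, so that the order of these 4 low groups is not resolved. Among groups 2 to 13, the means thus had high points at groups 4, 9 and 13 with lower groups between them. The means of groups 4 and 8 differed by less than the SD of group 8.

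**Figure D2:**
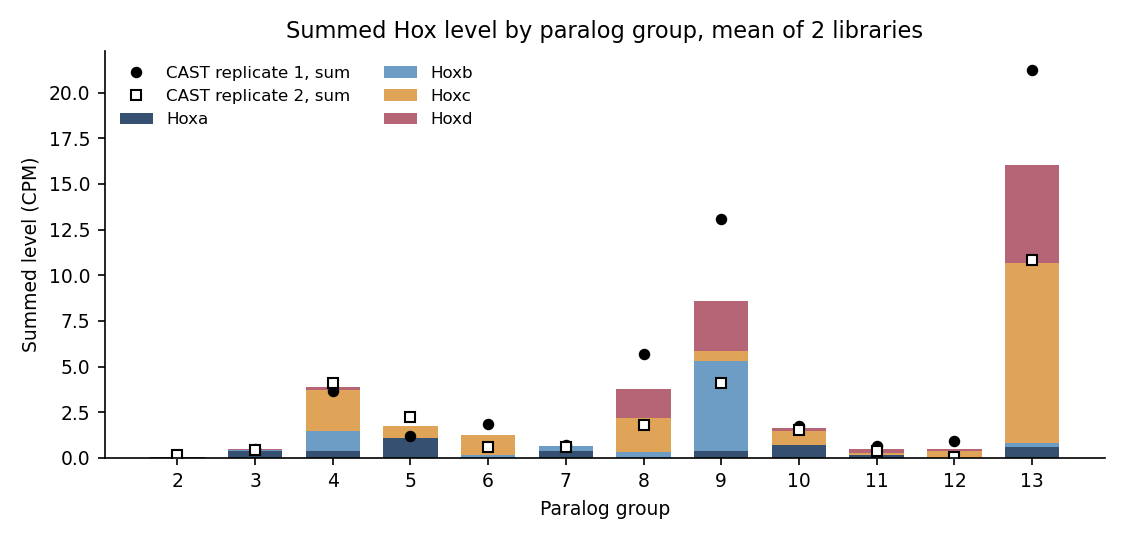
Summed level of Hox paralog groups 2 to 13 in CPM, with stacked bars for the mean of the 2 CAST libraries split by cluster and symbols for the sum in each library. Group 13 is highest in mean, at 16 CPM, mostly from Hoxc13 and Hoxd13, and among the groups shown group 9 has the next highest mean, at 8.57 CPM.

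By region, groups 9 to 13 held 67.7% of the Hox counts in replicate 1 and 51.6% in replicate 2. Groups 1 to 4 held 15.3% and 32.4%, and groups 5 to 8 held 17.0% and 16%. Their sums were 37.6 and 16.9 CPM for groups 9 to 13, 8.51 and 10.6 CPM for groups 1 to 4, and 9.41 and 5.24 CPM for groups 5 to 8. By cluster, the sums were 23.2 and 11.7 CPM for Hoxc, 14.5 and 11.2 CPM for Hoxd, 11.3 and 2.70 CPM for Hoxb, and 6.5 and 7.21 CPM for Hoxa. Summed per kilobase, Hoxc led in replicate 1 (9.71 against 6.17 for Hoxd) and Hoxd in replicate 2 (5.03 against 4.73 for Hoxc), and Hoxb was above Hoxa in replicate 1 (4.52 against 2.58) and below it in replicate 2 (1.14 against 3.14). The order of the clusters thus changed between the libraries within each of these pairs.

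The libraries differed in Hox level. The summed level was 1.69-fold higher in replicate 1 than in replicate 2 (interval 1.51 to 1.90), and it was 1.48-fold higher without Hoxb9 (1.31 to 1.67) and 1.28-fold higher without Hoxb9 and Hoxc13 (1.12 to 1.48). Of the 22 members with at least 10 counts over both libraries, 7 (31.8%) were at least 2-fold higher in replicate 1, where 8.24% of protein-coding genes with that many counts were, and 2 (9.09%) were at least 2-fold higher in replicate 2, against 5.18% of those genes. These shares depend on the counts, and among the 4449 protein-coding genes with between 10 counts and the 281 of Hoxc13 they were 18.1% and 12.3%. On the log2 scale the median of these ratios (replicate 1 over replicate 2) was 0.28 over the 22 members and 0.07 over all 13117 protein-coding genes compared. Both libraries belong to the same group, so these ratios compare 1 library with 1 other and have no replicate check.

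The interval of the ratio lay above 1 for 8 of the 22 members (36.4%), all of groups 6 to 13. It did so for 34.4% of protein-coding genes with at least 10 counts, a set that includes far more abundant genes, and for 24.2% of those with no more counts than Hoxc13. It lay below 1 for 2 members (9.09%), against 24.1% and 14.5% of those genes. Hoxb9 was 7.97-fold higher in replicate 1 (interval 4.66 to 14.7), Hoxc8 4.08-fold (2.02 to 9.11), Hoxc6 3.12-fold (1.30 to 8.61), Hoxd8 2.34-fold (1.19 to 4.85), Hoxc13 2.30-fold (1.77 to 3.02) and Hoxd13 1.5-fold (1.07 to 2.11). Hoxa13 and Hoxc12 had 3 counts and 1 count in replicate 2, and their ratios were 4.43 (1.24 to 24) and 9.49 (1.35 to 412). The intervals of Hoxa5 and Hoxd1 lay below 1, with ratios of 0.388 (0.157 to 0.878) and 0.539 (0.316 to 0.901), and the remaining 12 included 1. Hoxa4 had a ratio of 0.356, with an interval from 0.0608 to 1.48. Hoxc4, at the 3' end of its cluster, had a ratio of 0.759 (0.445 to 1.29). Hoxb4, of the same paralog group, went the other way at 1.73 (0.788 to 3.99). Several genes of groups 9 and 10 were near 1, with Hoxa9 at 1.14, Hoxa10 at 1.16, Hoxc9 at 1.08 and Hoxc10 at 1.27. Summed over groups 9 to 13 the ratio was 2.22 (1.90 to 2.60), and it was 1.53 (1.23 to 1.91) without Hoxb9 and Hoxc13. Over groups 1 to 4 it was 0.800 (0.624 to 1.02). Such intervals pool counts of different genes, from 1 library against 1 other, and cover counting error only. In groups 9 to 13, Hoxc13, Hoxd13 and Hoxb9 gave 418 of the 543 counts in replicate 1 and 156 of the 232 in replicate 2.

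**Figure D3:**
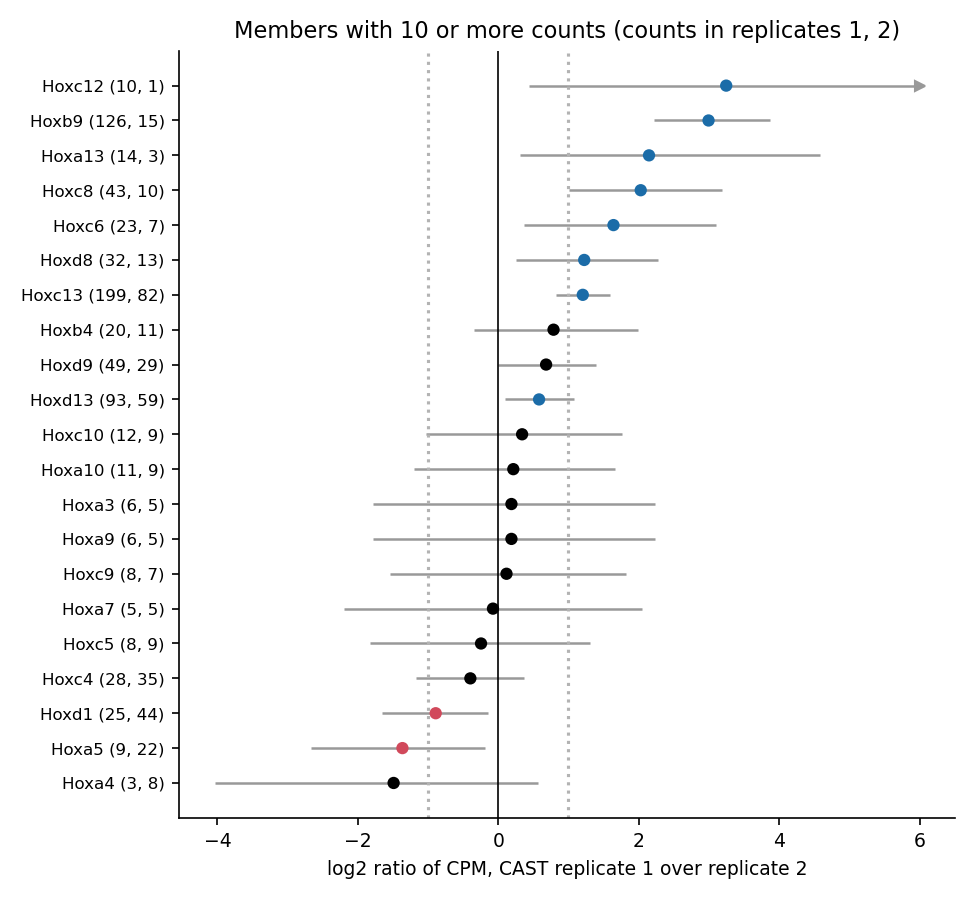
Ratio of CPM between CAST replicate 1 and replicate 2 for 21 of the 22 Hox genes with at least 10 counts in total, on a log2 axis, with 95% exact intervals for counting error and the counts of both libraries beside each symbol. Blue points are the 8 genes whose interval lies above 0, red the 2 below 0 and black those that include 0, dotted lines mark 2-fold, and the arrow marks an interval that runs past the axis.

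Fibroblast markers were also higher in replicate 1. Their summed level was 3305 and 1330 CPM in replicates 1 and 2, and 7 of the 12 with at least 10 counts were at least 2-fold higher in replicate 1 and none in replicate 2. The markers were uneven. Col1a2, a fibrillar collagen, was 3.03-fold higher in replicate 1 (interval 2.92 to 3.14) and Prrx1, a mesenchymal homeobox gene, 3.0-fold (2.17 to 4.23), whereas Dcn, decorin, had a ratio of 1.01 (0.658 to 1.57) and Twist1 of 0.763 (0.564 to 1.03). Their part in the Hox ratios was not tested. Other lists moved too. The pluripotency markers were higher in replicate 1 in 9 of 10 genes (median 0.54 on the log2 scale). The motor neuron markers had a median of 0.89 over 8 genes, 3 of them at least 2-fold higher in replicate 1 and 1, Isl2 with 2 and 8 counts, in replicate 2. The median was -0.95 over 4 neural progenitor markers, although their sum was higher in replicate 1 (71.4 and 57.8 CPM), most of it from Nes at 65.9 and 46.3 CPM. The median was -0.90 over 6 mesoderm and endoderm markers, which summed to 16.9 and 34.5 CPM and among which Gata6 had 10 and 99 counts. The part of these lists in the Hox ratios was not tested either.

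The partners of the Hox proteins were present in both libraries. The TALE homeodomain proteins (Pbx, Meis and Pknox) bind DNA together with Hox proteins. All 9 were above 3 counts in both libraries, where 69.9% of all protein-coding genes were. Pbx2 had 46.5 and 92.0 CPM and Pknox1 52.7 and 47.3 CPM. Meis1, which is itself tied to Hox expression in many tissues, had 0.692 and 1.53 CPM, the lowest of the 9 per length (0.105 ± 0.0563 CPM per kilobase, SD, n = 2). Pknox2 was 3.51-fold higher in replicate 1 (interval 2.37 to 5.32), while Pbx2 and Pbx4 were higher in replicate 2, with ratios of replicate 1 to replicate 2 of 0.505 (0.459 to 0.555) and 0.495 (0.343 to 0.706).

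Retinoic acid induces 3' Hox genes. Of 19 genes of its pathway, 15 were above 3 counts in both libraries, where 69.9% of all protein-coding genes were. The receptor Rara had 68.2 and 67.6 CPM and Rarg 36.4 and 74.1 CPM. Rarb, itself a target of the receptors, had 8 and 21 counts, and Cyp26a1, which degrades retinoic acid and is induced by it, had 3 and 19 counts, a ratio of 0.150 (interval 0.0284 to 0.509). Aldh1a2, which makes retinoic acid, had 11 and 18 counts. Of the 16 genes with at least 10 counts, 4 were at least 2-fold higher in replicate 2 and 1, Aldh1a3, in replicate 1, and the median ratio (replicate 1 over replicate 2, log2) was -0.35.

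Among posterior regulators, Cdx1, a caudal-type homeobox gene that acts on Hox genes, had 32 and 224 counts, or 2.21 and 16.3 CPM. Cdx2 had 3 counts in each library and Cdx4 3 and 2, at or under the floor. T (brachyury), a mesoderm regulator, had 7.81 and 15.8 CPM, and Gdf11, which sets posterior Hox domains, had 61 and 14 counts. Of the ParaHox genes, Gsx1 had 63 and 35 counts and Gsx2 had 41 and 20. Of the 7 genes of this list with at least 10 counts, 4 were at least 2-fold higher in replicate 2 and 1, Gdf11, in replicate 1.

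Polycomb and trithorax genes, which set the silent and active states of the clusters, were all expressed. All 31 were above 3 counts in both libraries, where 69.9% of all protein-coding genes were. Suz12, Eed and Ezh2, the core of Polycomb complex 2, had 625 and 706, 173 and 163, and 238 and 243 CPM. Kmt2a, a trithorax methyltransferase that maintains Hox expression, had 122 and 84.2 CPM. None of the 31 was at least 2-fold higher in replicate 1 and 2, Phf1 and Phf19, were in replicate 2, with a median log2 ratio of 0.08.

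**Figure D4:**
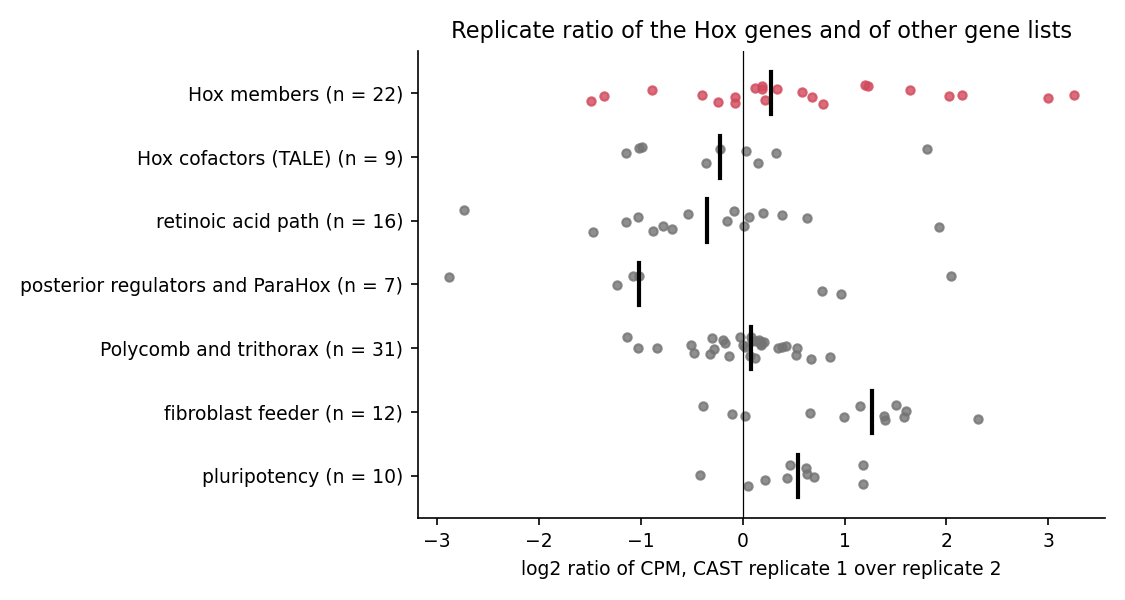
Log2 ratio of CPM between CAST replicate 1 and replicate 2 for genes with at least 10 counts in total, 1 point per gene, for the Hox genes (red) and other gene lists (grey). Points are spread vertically for visibility, and black bars are medians, at 0.28 for the Hox genes, 1.27 for fibroblast markers and -0.35 for retinoic acid genes.

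Most genes beside the clusters were detectable. Evx1, an even-skipped homeobox gene at the 5' end of the Hoxa cluster, had 68 and 49 counts, or 4.70 and 3.57 CPM. Per length it was at 1.44 ± 0.279 CPM per kilobase (SD, n = 2). Its counterpart Evx2 next to Hoxd13 had 1 and 0 counts, although Hoxd13 itself had 93 and 59. Of 10 other neighbours, 9 were above 3 counts in both libraries, where 69.9% of all protein-coding genes were. Among them were Ttll6 at 15.0 and 22.3 CPM and Cbx5 at 611 and 526 CPM. Skap1, near the Hoxb cluster, had 1 and 0 counts. None of the 9 was 2-fold apart between the libraries.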

How the data were processed

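RNA-seq counts of 2 libraries of CAST homozygous stem cells were used. The authors deposited raw counts of reads per gene, without normalization, listed by Ensembl identifier. The submitters' processing notes for these samples name TopHat2 2.1.1, SAMtools and HTSeq with GRCm38 (mm10), whereas the paper's methods describe STAR counts of uniquely mapped reads on the strain's own genome. Which of these made the table, and its strand setting, are not given in the sources used here, so reads of overlapping and antisense genes may be lost or misassigned. A further 7 columns match no listed sample and were not used.

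Of 26808 identifiers, 26807 matched a symbol in GENCODE M21 (GRCm38), which also gave positions, biotypes, exon unions and transcript sequences. CPM were counts per 1000000 counts of the library, and CPM per kilobase used the union of exons. Intervals of counts were exact Poisson and those of ratios conditional exact binomial (95%). Ratios used genes with 10 or more counts in total. Library totals were 14460393 and 13728098. Alternatives used TMM factors of edgeR 4.0.16 and size factors of DESeq2 1.42.0 in R 4.3.3. The 2-fold counting was also run on simulated data. It recovered nearly all genes that were made to differ, but many unchanged genes passed 2-fold as well. Python 3.11.15, scipy 1.17.1 and matplotlib 3.10.9 were used.

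The Hox genes as a subject, and the lists, were chosen with earlier results of these data known, although the rule for members uses symbols alone. Every member was counted, those above 3 counts in both libraries were named with both values, those above 3 in 1 library were named too, and lists were given by counts with examples. With 1 usable group no test across genes was fitted. The planned edgeR and DESeq2 comparisons between groups were not run. Promoter and protein sequences were not used here, and the values of 1 member are not reported here.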

Additional observations from a re-analysis of the deposited data

How the results depend on the processing

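No paired analysis was possible because a single group, the CAST stem cells, has columns in the table and there was no other group to pair with. For the same reason the planned tests between groups, by edgeR and by DESeq2, were not run. The number of members detectable in both libraries, 19, became 30 with at least 1 count and 10 with at least 10 counts in each library, and with 1 library left out it was between 21 and 25. The ratio of the summed level between the libraries, 1.69, was 1.48 without Hoxb9 and 1.28 without Hoxb9 and Hoxc13, alternatives chosen after seeing the data. The number of members at least 2-fold higher in replicate 2 fell from 2 to 0 with no filter and a pseudocount of 0.5 CPM. Per kilobase of exons, the mean share of the Hox sum moved from 1.10% to 0.464% for paralog group 3 and from 1.12% to 0.949% for group 11. For group 12 the share went from 0.922% to 1.89%, within its SD of 0.989 between the libraries. These changes follow from the division by length. Scaling by TMM, by size factors or by protein-coding totals moved no summed level by as much as 1 SD between the libraries. At a few counts per gene the depth allows no statement on differences.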

Other observations

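Beyond the protein-coding Hox genes, 35 other annotated genes within the spans of the clusters were in the table, and 2 of them were above 3 counts in both libraries. They were chosen here after their values were seen. Gm53, a long intergenic non-coding RNA gene of the Hoxb cluster (chromosome 11, 96251105 to 96264868, plus strand), had 618 and 506 counts, or 42.7 and 36.9 CPM (mean 39.8 ± 4.16, SD, n = 2). It lies between Hoxb13 and Hoxb9 and ends 6588 bases before Hoxb9. The ratio of replicate 1 to replicate 2 was 1.16 for Gm53 (95% exact interval 1.03 to 1.31, counting error only) and 7.97 for Hoxb9 (4.66 to 14.7), intervals that do not overlap. Mir196a-1, the gene of a microRNA known to target Hox mRNAs, starts 295 bases after the end of Gm53 and had 43 and 38 counts, or 2.97 and 2.77 CPM. The other Hox-embedded microRNA genes in the table, Mir196a-2, Mir196b, Mir10a, Mir10b, Mir615 and Gm44463, had at most 2 counts in a library. The paper describes mRNA libraries, so counts at these genes are not read here as levels of mature microRNA. Whether the reads at Mir196a-1 belong to a longer transcript, such as that of Gm53, was not tested.

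Haglr, a non-coding gene on the opposite strand 83 bases from Hoxd1, had 3 and 11 counts, a ratio of 0.259 (0.0464 to 0.980), and Hoxd1 had 0.539 (0.316 to 0.901). Hotair, a non-coding gene of the Hoxc cluster known for its link to Polycomb proteins, had 1 count in replicate 1 and none in replicate 2. Gm28308, Gm28309 and Gm28230, whose exons each overlap those of a pair of Hox genes, had no count, and the 9 antisense genes annotated within the spans were not analysed here.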
